A study of Mus musculus with 100 samples.

Results

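The libraries described here are 2 of the 100 mRNA-seq libraries of the study: the one labelled shTaf5 replicate 2 and the one labelled shTaf6 replicate 1. They were chosen by their Taf5 level, which was the lowest of the whole study in both. The study knocked down subunits of TFIID, SAGA and Mediator, one at a time, in V6.5 mouse embryonic stem cells, with the stated purpose of finding the subunits that contribute most to transcription across the genome. V6.5 is an embryonic stem cell line of hybrid mouse background. It was kept on mouse embryonic fibroblast feeders in serum with LIF, and the feeders were depleted before transfection. Every group used here, controls included, received 1.8 µg of a plasmid by lipid transfection, puromycin at 1 µg/ml from 24 h, and 72 h of selection. The plasmid carried a short hairpin RNA against the named subunit or the control hairpin shControl. The comparison groups were 2 shControl libraries, 2 libraries with low Taf6 and 2 libraries with low Taf9. These controls are titled for all TFIID subunits and for Med15, Med16, Med23, Med24 and Med25 of Mediator. The 42 libraries under that title are called the TFIID set here, Mediator knockdowns included. A further group was 37 other knockdown libraries of this set, among them the low-Taf6 and low-Taf9 ones. The labels do not say whether replicates came from separate cultures, so p-values measure only the spread between these libraries.

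TFIID is the general transcription factor that recognises core promoters through TBP and its TBP-associated factors and starts assembly of the RNA polymerase II machinery. TAF5 is a WD40-repeat protein of the TFIID core, present in both lobes of the complex, where it holds together the histone-fold pairs TAF6 with TAF9 and TAF4 with TAF12. SAGA, a coactivator with histone acetyltransferase and deubiquitinase activity, uses the paralog TAF5L in its place.

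Taf5 stood at 3.55 RPKM (reads per kilobase of transcript, scaled to the mapped reads of the library) in shTaf5 replicate 2 and at 3.31 RPKM in shTaf6 replicate 1, against 8.69 and 9.10 RPKM in the controls. These are 39.9% and 37.2% of the control mean. The next lowest of the 42 libraries of the TFIID set was shTaf1 replicate 1 at 6.07 RPKM, or 68.2% of control. Since the level of Taf5 chose the libraries, it is described and not tested. The reduction left transcript in place, so these are partial knockdowns at the mRNA level, and protein was not measured.

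One of the 2 labels is in doubt. The library labelled shTaf6 replicate 1 held Taf6 at 37.1 RPKM, the highest of the 42 libraries, where its label would have it low. The library labelled shTaf5 replicate 1 held Taf5 at 114.6% of control, and the target with the lowest relative level there was Taf4b, at 40.9%. The same was seen across the set: the named target was the lowest of the 20 targets in 20 of 20 knockdown libraries numbered replicate 2, and in 1 of 20 numbered replicate 1, most of which held low the target of the preceding name. The 2 controls differed from each other by no such loss, with the 20 targets in control replicate 1 between 69.8% and 109.9% of their level in replicate 2, and the true identity of the replicate 1 libraries, that control included, was not established.

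With the 20 target genes left out, the 2 Taf5-low libraries were each other's nearest neighbour among the 42 libraries. The standard deviation of their log2 differences over 12497 genes was 0.165. It was 0.257 between the 2 libraries labelled shTaf5 and 0.311 between the 2 labelled shTaf6. Each Taf5-low library lay 0.259 to 0.271 from each control, and the controls lay 0.207 from each other. The controls were not each other's nearest: control replicate 1 lay closest, at 0.138, to the library labelled shTbp replicate 1, in which no target was under 78.1% of control, and control replicate 2 lay closest to shTaf7 replicate 2, at 0.201.

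**Figure D1:**
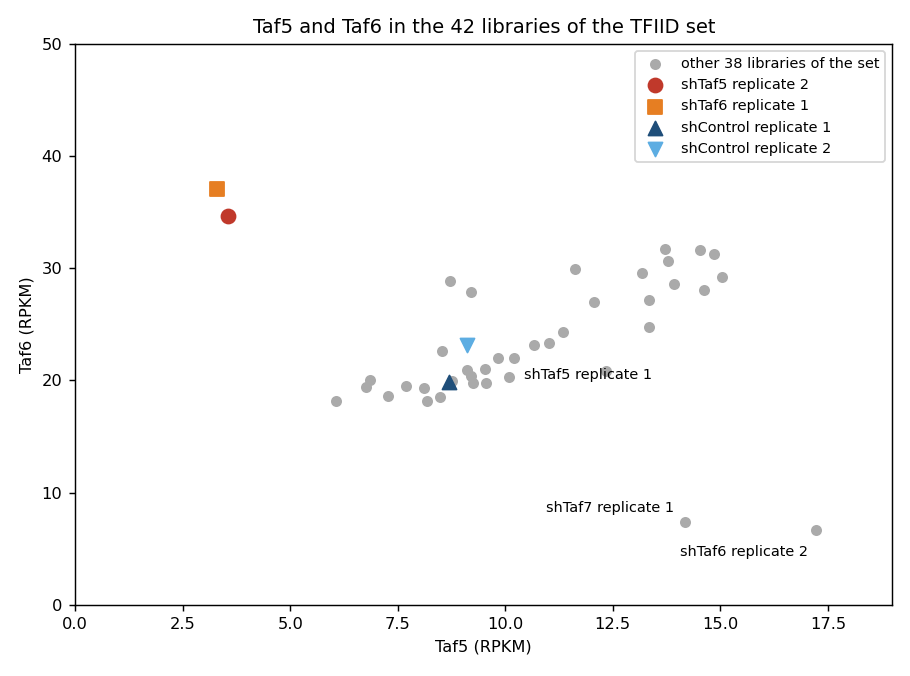
Taf5 against Taf6 level in RPKM, 1 point for each of the 42 libraries of the TFIID set. The 2 Taf5-low libraries stand apart at the upper left, with Taf5 at 3.31 and 3.55 RPKM and Taf6 at 34.7 and 37.1 RPKM, and the 2 Taf6-low libraries at the lower right, with Taf5 at 14.2 and 17.2 RPKM.

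The 4 libraries of the main comparison carried embryonic stem cell transcripts at similar levels. Summed over 6 markers (Pou5f1, Sox2, Nanog, Zfp42, Dppa5a and Utf1), these were 931 and 1017 RPKM in the Taf5-low libraries and 962 and 1074 RPKM in the controls. Of 7 fibroblast feeder markers 2 (Col1a1 and Col1a2) reached 1 RPKM in any of the 4 libraries, and Lum, Postn and Dcn were at 0 in at least 1 of them. The sum of the 7 was 2.50 and 3.19 RPKM against 2.20 and 1.78 RPKM. Depth was estimated from the steps between low RPKM values, of which only 74.5% to 75.8% in these libraries came within 0.1 of a whole read, so the estimates are uncertain. It was 17.3 M reads in shTaf5 replicate 2 and 25.7 M in shTaf6 replicate 1, against 24.3 and 18.6 M in the controls and 17.2 to 25.7 M over the set.

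Of 14 other TFIID subunits tested, 3 were called higher (Taf6, Taf12 and Taf4b) and none lower. Both Taf5-low libraries lay above both controls in 9 of the 14 and below both in 2, Taf8 and Taf1. Over all genes tested these shares were 36.7% and 19.6%. A call here is an adjusted p under 0.05 in limma's moderated test on log2(RPKM + 1), two-sided, with Benjamini-Hochberg adjustment over all 11629 genes tested. On that scale, which understates the change of low genes, 5.92% of all genes were called, 4.02% higher and 1.89% lower. The median log2 fold change of the 14 subunits was 0.19, against 0.05 over all genes tested.

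Taf6, whose product pairs with TAF9 through a histone fold and sits beside TAF5, was at 34.7 and 37.1 RPKM against 19.8 and 23.1 RPKM. Both Taf5-low libraries lay above both controls and above the other 40 libraries. The log2 fold change was 0.72 ± 0.10 (standard error, n = 2 against 2, limma adjusted p = 0.0106). In the 2 Taf6-low libraries, which are labelled shTaf6 replicate 2 and shTaf7 replicate 1, Taf5 was at 17.2 and 14.2 RPKM, above both controls. Taf5 was also high in libraries of other labels, such as shTaf2 replicate 2 (15.0 RPKM) and shTaf8 replicate 2 (14.8 RPKM). So was Taf6, at 31.7 RPKM in shTaf11 replicate 1 and 31.6 RPKM in shTaf10 replicate 2. A link between the 2 genes was not tested. In the 2 Taf9-low libraries, labelled shTaf9 replicate 2 and shTaf10 replicate 1, Taf6 was at 24.8 and 24.3 RPKM, below both Taf5-low libraries (log2 difference 0.53 ± 0.07, limma adjusted p = 0.021), and Taf5 at 13.3 and 11.3 RPKM.

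Taf12, the histone-fold partner of TAF4 in TFIID and also a SAGA subunit, was at 25.8 and 23.7 RPKM against 14.9 and 17.2 RPKM, a log2 fold change of 0.60 ± 0.10 (limma adjusted p = 0.0187). Taf4b, the TAF4 paralog of the germline, was at 9.80 and 9.47 RPKM against 6.58 and 7.11 RPKM, a log2 fold change of 0.44 ± 0.09 (limma adjusted p = 0.0329). In both genes the groups did not overlap. The call of Taf12 was lost without shTaf5 replicate 2 (limma adjusted p = 0.059), and that of Taf4b without shTaf5 replicate 2 (0.162) or without shTaf6 replicate 1 (0.104).

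The remaining subunits did not pass the test. Taf13, the partner of TAF11, was at 20.2 and 18.3 RPKM against 15.5 and 14.4 RPKM (limma adjusted p = 0.0626, and 0.0225 without control replicate 1), and Taf8, the partner of TAF10, was at 7.32 and 8.02 RPKM against 9.44 and 9.82 RPKM (0.0917, and 0.0407 in the lower direction after upper-quartile scaling). Tbp was at 114.3% of its control mean, Taf1 at 92.0%, Taf2 at 115.4%, Taf3 at 116.0%, Taf4 at 118.5%, Taf7 at 107.1%, Taf9 at 113.8%, Taf10 at 97.9% and Taf11 at 98.8%. Of the paralogs, Taf5l, the SAGA counterpart of Taf5, was at 23.3 and 24.6 RPKM against 25.6 and 27.2 RPKM and was not called (limma adjusted p = 0.35). No paralog of 5 tested was called, and Tbpl2 was listed at 0 RPKM in all 4 libraries. Taf7l, however, passed in the lower direction with the replicate number as a block (limma adjusted p = 0.0196). Without control replicate 2 its log2 fold change was −0.46.

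**Figure D2:**
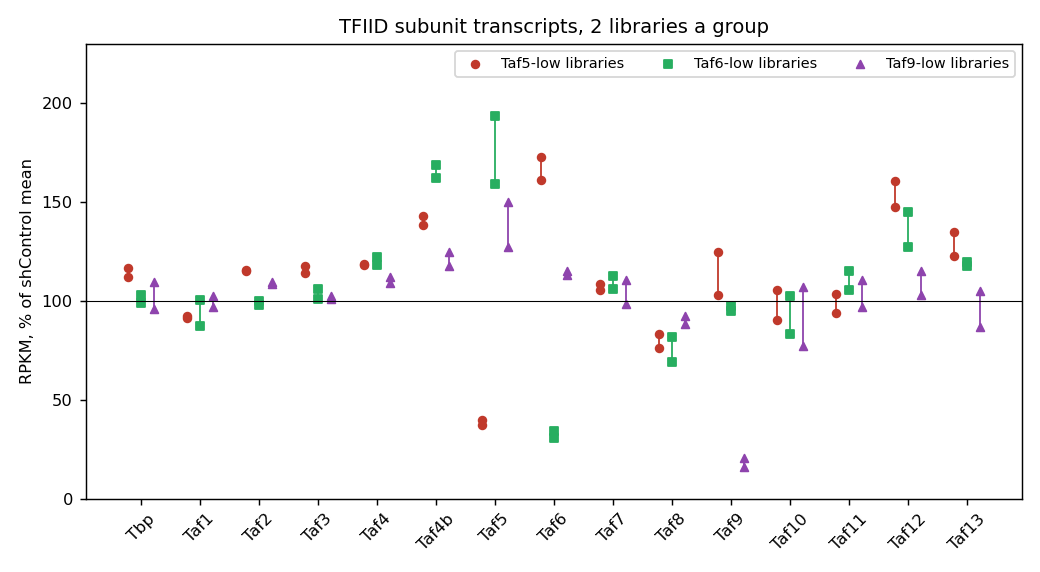
TFIID subunit transcripts as a percentage of the mean of the 2 shControl libraries, with 1 point for each library and a line joining the 2 libraries of a group. Taf5 is at 37.2% and 39.9% in the Taf5-low libraries and Taf6 at 161% and 173%, while the Taf6-low libraries show Taf5 at 159% and 193%.

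Among the other factors of the transcription machinery the calls were few. Of 17 general transcription factor genes 3 were higher and none lower, with a median log2 fold change of 0.15. Gtf2a1, the large subunit precursor of TFIIA, which binds TBP on DNA, was at 16.1 and 14.6 RPKM against 8.50 and 7.51 RPKM, a log2 fold change of 0.86 ± 0.10 (limma adjusted p = 0.00623). Gtf2b, which encodes TFIIB, the bridge between TBP and polymerase, was at 20.02 and 22.8 RPKM against 14.4 and 13.7 RPKM (log2 fold change 0.57 ± 0.09, limma adjusted p = 0.0189). Ccnh, the cyclin of the TFIIH kinase, had a log2 fold change of 0.37 ± 0.08 (limma adjusted p = 0.042, and 0.0533 after upper-quartile scaling).

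Polr2a, the largest RNA polymerase II subunit, was the only polymerase gene called among 12, at 115 and 116 RPKM against 79.1 and 71.8 RPKM, a log2 fold change of 0.61 ± 0.09 (limma adjusted p = 0.014). Of 30 Mediator genes only Ccnc, the kinase module cyclin, was called (0.49 ± 0.09, limma adjusted p = 0.0229), and of 19 SAGA genes only the shared Taf12. After upper-quartile scaling the Mediator list had 1 gene higher and 2 lower, and the elongation and pausing list had the same counts, so no direction is drawn for either. Of 18 elongation and pausing genes Hexim1, the inhibitor of P-TEFb, rose (20.6 and 20.1 RPKM against 11.2 and 12.7 RPKM, log2 fold change 0.72 ± 0.09, limma adjusted p = 0.00836), as did Nelfcd of the pausing factor NELF (0.36 ± 0.08, limma adjusted p = 0.0431), and Aff1 of the super elongation complex fell (−0.45 ± 0.11, limma adjusted p = 0.0487). Groups overlapped in none of these genes. Leaving out 1 library in turn, the calls of Gtf2a1, Polr2a and Hexim1 were kept, Gtf2b (limma adjusted p = 0.08) and Ccnc (0.124) were lost without shTaf6 replicate 1, and Ccnh, Nelfcd and Aff1 were lost without either Taf5-low library (0.079 to 0.267). The call of Aff1 was also lost without control replicate 1 (limma adjusted p = 0.072), and that of Nelfcd after upper-quartile scaling (0.052).

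Across the transcriptome 688 of 11629 genes were called, 468 higher and 220 lower, and the changes were small. The median absolute log2 fold change of called genes was 0.52, and 27 called genes passed an absolute log2 fold change of 1. Both Taf5-low libraries lay above both controls in 36.7% of the genes tested and below both in 19.6%, and 2956 genes had an unadjusted p under 0.05. In bulk RNA, a change in the share of cells of a type and a change in RNA per cell cannot be told apart.

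The number and the split of calls moved with the processing. With each library scaled by its upper quartile 401 genes were called higher and 550 lower, so 42.2% of calls were upward in place of 68.0%, and without the filter on level 9 genes were called. Leaving out 1 library gave 276 calls (without shTaf5 replicate 2), 301 (without shTaf6 replicate 1), 1356 (without control replicate 1) and 1818 (without control replicate 2), with 154 genes called in all 4 of these fits, 100 higher and 54 lower. When the spread was taken from all 42 libraries, whose labelled pairs may mix knockdowns, no gene was called.

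**Figure D3:**
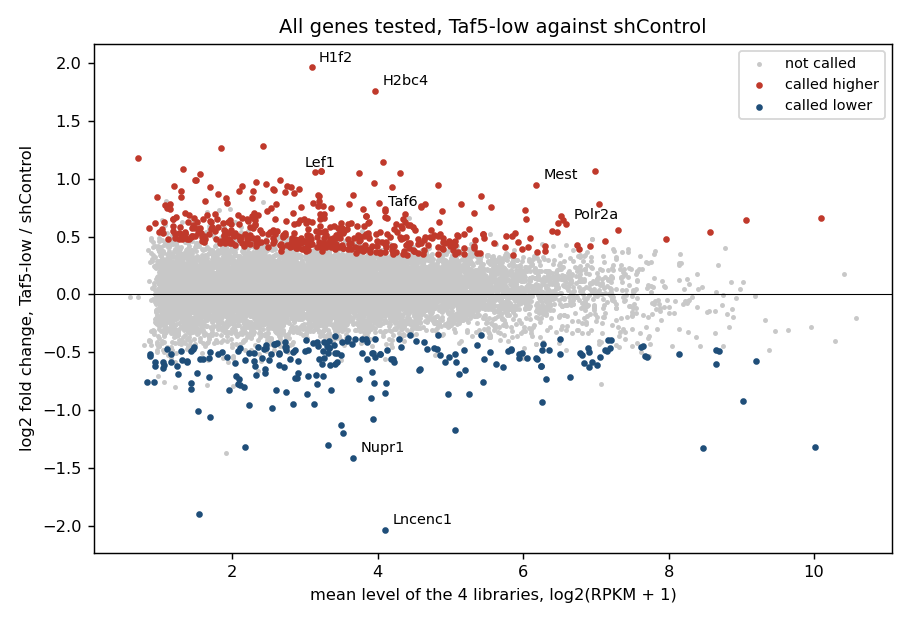
Log2 fold change of the Taf5-low libraries against shControl, by mean level, for the 11629 genes tested, with called genes in colour. The 468 genes called higher and 220 called lower mostly lie within a log2 fold change of 1, with H1f2, H2bc4, Lncenc1 and Nupr1 beyond it.

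The largest rises were in histone genes. H1f2, which encodes the linker histone H1.2, was at 12.8 and 12.2 RPKM against 1.58 and 3.62 RPKM, a log2 fold change of 1.97 ± 0.23 (limma adjusted p = 0.00691). H2bc4, a clustered H2B gene, was at 22.7 and 23.6 RPKM against 6.76 and 5.52 RPKM, a log2 fold change of 1.76 ± 0.10 (limma adjusted p = 0.000678). The groups did not overlap in either gene, and the difference was many times the spread within the Taf5-low pair. The controls of H1f2, at 1.58 and 3.62 RPKM, stood relatively further apart than that pair.

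H4c9, a clustered H4 gene, was at 7.99 and 6.83 RPKM against 3.26 and 3.19 RPKM (log2 fold change 0.99 ± 0.10, limma adjusted p = 0.00524). H2ax, the variant phosphorylated at DNA breaks, was at 169 and 174 RPKM against 72.4 and 91.0 RPKM (1.07 ± 0.12, limma adjusted p = 0.00602). Transcripts of clustered histone genes normally end in a stem loop in place of a poly(A) tail, and the libraries were made with a kit for mRNA. Of 9 replication-dependent histone genes tested 2 were called higher (H1f2 and H2bc4) and none lower, 8 had a positive log2 fold change, and the median was 0.21. Summed over the list, levels were 60.1 and 68.7 RPKM against 34.0 RPKM in both controls, and H1f2 and H2bc4 held most of that difference. H4c9 and H2ax, though called, are not on the list. Both Taf5-low libraries lay above both controls in 3 of the 9 genes, beside 36.7% of all genes tested. H2ac4 overlapped, at 14.3 and 24.7 RPKM against 17.1 and 17.2 RPKM.

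Further named rises were spread over functions. Atp1b2, a beta subunit of the sodium-potassium pump, was at 6.76 and 6.52 RPKM against 2.33 and 1.95 RPKM (log2 fold change 1.28 ± 0.10, limma adjusted p = 0.00233). Olig1, a helix-loop-helix factor of the oligodendrocyte lineage, was at 22.8 and 21.3 RPKM against 7.86 and 11.2 RPKM (1.15 ± 0.14, limma adjusted p = 0.00831). Groups overlapped in neither gene. Mmp25, a membrane-anchored metalloproteinase, Caprin2, and Irgm1, an interferon-inducible GTPase, had log2 fold changes of 0.98, 0.97 and 0.95. Mir1906-1 and Mir1906-2 held identical values in every library, so their reads cannot be assigned to one of them.

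The largest fall was in Lncenc1, a long noncoding RNA of naive embryonic stem cells, at 5.60 and 5.87 RPKM against 26.3 and 26.9 RPKM, a log2 fold change of −2.04 ± 0.08 (limma adjusted p = 7.03e-05). Platr14, another noncoding transcript of embryonic stem cells, was at 4.99 and 4.50 RPKM against 13.97 and 12.4 RPKM (−1.30 ± 0.10, limma adjusted p = 0.00222). Rpl22l1, a paralog of the ribosomal protein gene Rpl22, was at 18.3 and 20.9 RPKM against 41.4 and 49.5 RPKM (−1.17 ± 0.11, limma adjusted p = 0.00462). In each of the 3 genes both Taf5-low libraries lay below both controls.

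Tgm1, a transglutaminase, Pck2, the mitochondrial phosphoenolpyruvate carboxykinase, and Ntn1, the guidance cue netrin-1, were at 39.8%, 43.2% and 46.1% of their control means. For Ntn1 both controls (7.90 and 8.88 RPKM) lay above all 37 other knockdown libraries compared below, whose highest was 7.87 RPKM and median 4.04 RPKM. Cyct, the testis cytochrome c, Gm15421 and the small nucleolar RNAs Snora65 and Snora17 were also among the 14 lowest. Lars2, the mitochondrial leucyl-tRNA synthetase, was at 197 and 185 RPKM, but its controls stood far apart at 698 and 331 RPKM, and Mir6236 did the same at 571 and 573 against 1948 and 1049 RPKM. All 28 named genes kept their call when any 1 of the 4 libraries was left out.

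**Figure D4:**
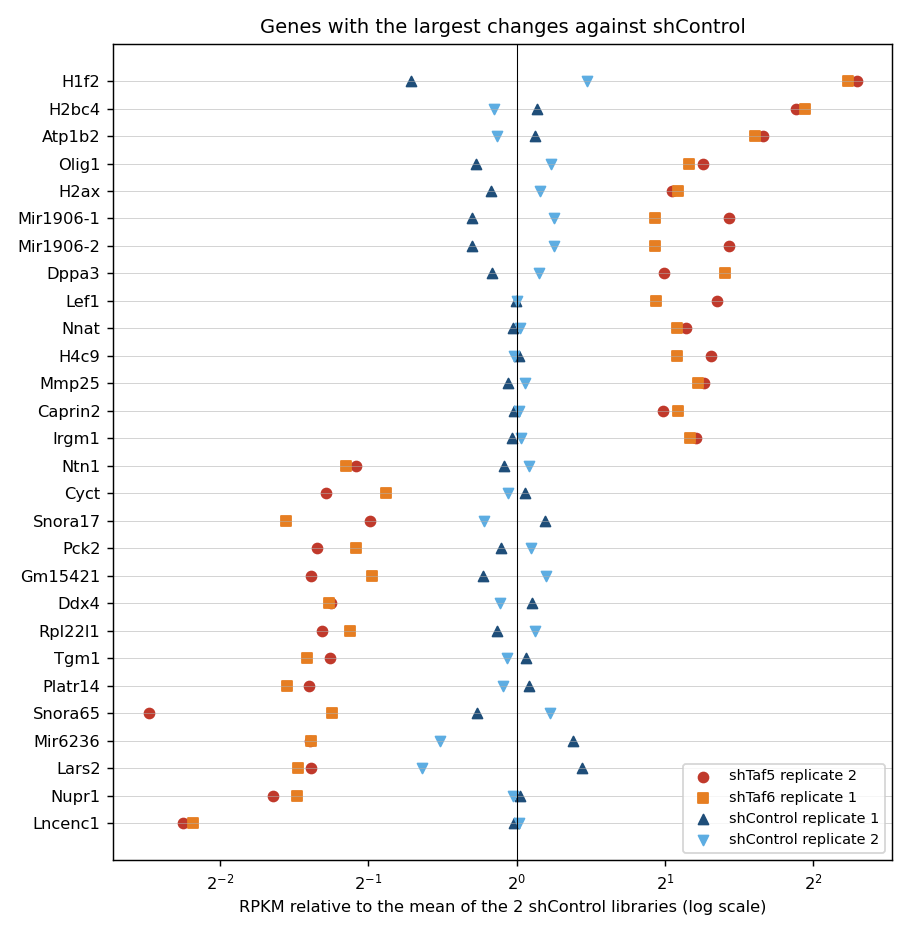
Level of the 14 genes with the largest rise and the 14 with the largest fall, in each of the 4 libraries, relative to the mean of the 2 shControl libraries on a log scale. The 2 Taf5-low points lie together and apart from both controls in most genes, as in H2bc4 (22.7 and 23.6 against 6.76 and 5.52 RPKM), while the controls of Lars2 and Mir6236 are spread widely.

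Primed pluripotency genes, which mark the epiblast-like state that follows the naive one, held the highest median of the lists with at least 4 tested members. It was 0.56 on the log2 scale over 11 genes, with 6 higher and none lower. For all genes tested the median was 0.05, with 4.02% called higher. Lef1, a Wnt pathway transcription factor, was at 19.6 and 14.7 RPKM against 7.65 and 7.66 RPKM (log2 fold change 1.05 ± 0.13, limma adjusted p = 0.00831). Otx2, a transcription factor of the early primed state, was at 22.3 and 23.8 RPKM against 13.8 and 15.99 RPKM (0.60 ± 0.10, limma adjusted p = 0.0181). Groups overlapped in neither. Against the Taf9-low libraries the median of the primed list was 0.13, with 2 of 11 called higher and none lower. Most members thus did not differ by the test between the Taf5-low and Taf9-low libraries. In the Taf9-low libraries Lef1 was at 11.3 and 9.78 RPKM and Otx2 at 20.6 and 18.96 RPKM, above both controls. Cdh2, at 3.45 and 2.69 RPKM there, was not above both.

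Fgf5, the classical primed epiblast growth factor, was low throughout, at 1.80 and 1.61 RPKM against 0.547 and 0.669 RPKM (log2 fold change 0.75 ± 0.11, limma adjusted p = 0.0153), and Sox3 was at 4.54 and 4.47 RPKM against 1.49 and 2.51 RPKM (0.89 ± 0.16, limma adjusted p = 0.0223). Zic2 and the N-cadherin gene Cdh2 were called at log2 fold changes of 0.58 and 0.56. Dnmt3b at 0.30, Pou3f1 at 0.19, Foxd3 at 0.08, Dnmt3a at 0.06 and Etv4 at −0.16 did not pass. Without shTaf5 replicate 2 the calls of Zic2 (limma adjusted p = 0.08) and Cdh2 (0.07) were lost, without shTaf6 replicate 1 that of Cdh2 (0.051), and Fgf5 then fell under the filter on level without either of them and was not tested. The calls of Lef1, Otx2 and Sox3 were kept with any 1 of the 4 libraries left out.

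Naive and general pluripotency genes gave few calls. Of 16 naive genes 2 were higher and 2 lower, with a median of −0.13, and after upper-quartile scaling 2 were higher and 5 lower. Dppa3, a maternal and germ cell factor that shields DNA methylation, was at 9.42 and 12.5 RPKM against 4.21 and 5.24 RPKM (log2 fold change 1.06 ± 0.14, limma adjusted p = 0.0106), and Tcl1, an AKT cofactor, had a log2 fold change of 0.81 ± 0.12 (limma adjusted p = 0.0138). Klf4 was at 23.3 and 22.2 RPKM against 29.2 and 37.4 RPKM (−0.52 ± 0.12, limma adjusted p = 0.0418) and Tfcp2l1 at 5.82 and 5.91 RPKM against 9.08 and 8.09 RPKM (−0.48 ± 0.09, limma adjusted p = 0.0307). Both are transcription factors of the naive network, and both calls were lost without either Taf5-low library (limma adjusted p = 0.07 to 0.109).

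Of 12 general pluripotency genes only Tdgf1, the Nodal coreceptor Cripto, was called. It was at 290 and 288 RPKM against 206 and 209 RPKM, a log2 fold change of 0.48 ± 0.10 (limma adjusted p = 0.031), and lost its call without shTaf5 replicate 2 (0.172) or shTaf6 replicate 1 (0.169). Pou5f1, the gene of OCT4, was at 317 and 316 RPKM against 293 and 352 RPKM, within the range of the controls, and Nanog was at 37.1 and 40.3 RPKM against 41.2 and 43.9 RPKM (limma adjusted p = 0.368). Dab2, an endocytic adaptor of primitive endoderm, was at 27.9 and 33.6 RPKM against 17.6 and 17.3 RPKM (0.78 ± 0.10, limma adjusted p = 0.00932), the only call among 14 primitive endoderm genes. The 5 primitive endoderm markers summed to 72.3 and 86.6 RPKM against 59.7 and 63.2 RPKM, but Dab2 held most of that difference: Gata6 (10.7 and 13.1 RPKM against 11.5 and 12.5 RPKM) and Sox17 (7.88 and 9.98 RPKM against 6.99 and 8.03 RPKM) overlapped the controls. The primitive endoderm list summed to 1371 and 1675 RPKM against 1470 and 1512 RPKM, which also overlap, and the part of these markers in the other results was not tested.

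Imprinted genes, expressed from 1 parental allele, were called higher in 5 of 19 and lower in 1, with a median of 0.20. Over all genes tested 4.02% were called higher and 1.89% lower, with a median of 0.05. Nnat, which encodes the small membrane protein neuronatin, was at 26.3 and 25.2 RPKM against 11.7 and 12.1 RPKM, a log2 fold change of 1.05 ± 0.08 (limma adjusted p = 0.00222). Mest was at 96.4 and 92.7 RPKM against 47.9 and 49.0 RPKM (0.95 ± 0.08, limma adjusted p = 0.00298). Within each group the libraries lay close together, and the groups did not overlap.

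Cdkn1c, a cyclin-dependent kinase inhibitor, was at 30.9 and 27.9 RPKM against 15.2 and 18.9 RPKM (log2 fold change 0.76 ± 0.11, limma adjusted p = 0.0142), and Igf2, the fetal growth factor, at 32.5 and 26.6 RPKM against 17.3 and 16.6 RPKM (0.76 ± 0.11, limma adjusted p = 0.0115). Snrpn was called at 0.53 and the amino acid transporter Slc38a4 at −0.47. The first 4 genes kept their call with any 1 library left out. Snrpn lost it without shTaf6 replicate 1 (limma adjusted p = 0.086) and Slc38a4 without either Taf5-low library (0.096 and 0.104).

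Genes of the integrated stress response, in which ATF4 drives amino acid metabolism genes, were lower in 6 of 17 and higher in 1, with a median of −0.22. The shares over all genes tested were 1.89% lower and 4.02% higher. Nupr1, a stress-induced chromatin protein, was at 5.60 and 6.25 RPKM against 17.7 and 17.2 RPKM, a log2 fold change of −1.41 ± 0.09 (limma adjusted p = 0.00084). Mthfd2, a mitochondrial folate enzyme, was at 27.5 and 27.3 RPKM against 40.1 and 47.9 RPKM (−0.66 ± 0.10, limma adjusted p = 0.0151). Both genes kept the call with any 1 library left out, and both were lower in each Taf5-low library than in each control.

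Atf5, Trib3, Psat1 and Atf4 itself were also called, with log2 fold changes of −0.65, −0.54, −0.48 and −0.46, and the transporter Slc7a3 was called higher at 0.45. Asns (−0.33), Ddit3 (−0.11) and Atf3 (0.05) did not pass. Atf5 (limma adjusted p = 0.053) and Trib3 (0.08) lost the call without shTaf6 replicate 1, and Psat1, Atf4 and Slc7a3 lost it without either Taf5-low library (0.097 to 0.184). After upper-quartile scaling 9 of the 17 were lower.

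Of 12 heat shock and chaperone genes 4 were lower and none higher, with a median of −0.27, beside 1.89% lower over all genes tested. The near-identical pair Hspa1a and Hspa1b, which encode the inducible HSP70 and may share reads, was at 2.16 and 2.27 RPKM against 4.14 and 4.55 RPKM, and at 3.01 and 2.62 RPKM against 4.70 and 5.70 RPKM. The log2 fold changes were −0.73 ± 0.10 and −0.70 ± 0.12 (limma adjusted p = 0.0114 and 0.02), and the groups did not overlap. Hspd1 and Hsph1 were called at −0.48 and −0.35, calls that were lost without either Taf5-low library (limma adjusted p = 0.086 to 0.309).

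All 20 ribosomal protein genes tested had both Taf5-low libraries below both controls, with a median log2 fold change of −0.39. Of all genes tested, 19.6% lay below both controls. In the Taf6-low libraries these genes were lower still: all 20 log2 differences were positive (median 0.25, 4 called). Against the Taf9-low libraries the median was −0.31, with none called. Only 4 of the 20 were called lower than in the controls, among them Rpl14, Rps9 and Rpl23, with log2 fold changes of −0.54, −0.49 and −0.45. Rpl14 was at 162 and 168 RPKM against 223 and 257 RPKM (limma adjusted p = 0.0306). After upper-quartile scaling 19 of the 20 were called, whereas none of these 3 genes kept its call without either Taf5-low library (limma adjusted p = 0.098 to 0.27). Of 18 ribosome biogenesis genes 1 was lower, Nop56 at −0.39 (limma adjusted p = 0.0421, and 0.325 without shTaf5 replicate 2 and 0.153 without shTaf6 replicate 1).

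Germline genes were lower in 3 of 9 tested, with a median of −0.40, beside 1.89% lower over all genes tested. Ddx4, the RNA helicase of germ cells, was at 6.09 and 6.04 RPKM against 15.6 and 13.4 RPKM, a log2 fold change of −1.13 ± 0.10 (limma adjusted p = 0.00298). Stra8, the retinoic acid induced gene of meiotic entry, was at 1.03 and 0.772 RPKM against 2.17 and 3.57 RPKM (−1.01 ± 0.17, limma adjusted p = 0.0217). Its median in the 37 other knockdown libraries compared below was 0.709 RPKM, under both Taf5-low libraries, so this fall is not particular to them. The meiotic chromosome protein gene Hormad1 was at 1.22 and 1.64 RPKM against 3.32 and 2.65 RPKM (−0.72 ± 0.13, limma adjusted p = 0.0261). The calls of Ddx4 and Stra8 were kept with any 1 library left out, and that of Hormad1 was lost without shTaf5 replicate 2 (limma adjusted p = 0.061).

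Of 10 immediate early genes, which respond to growth signals within minutes, Egr1, Fos and Myc were called higher and none lower, with a median of 0.29. The share called higher over all genes tested was 4.02%. Egr1 was at 25.5 and 22.3 RPKM against 13.6 and 16.2 RPKM (log2 fold change 0.65 ± 0.11, limma adjusted p = 0.02). Each of the 3 lost its call without 1 or the other Taf5-low library (limma adjusted p = 0.052 to 0.197). The NRF2 targets Nqo1 (0.73) and Gclc (0.52) were called higher among 10 genes, of which Gclc lost its call without shTaf6 replicate 1 (limma adjusted p = 0.074). Of 20 p53 targets 4 were called higher and 1 lower, a split that turned to 2 higher and 3 lower after upper-quartile scaling. Among them were Cdkn1a at 0.41 and Perp at −0.54, and none of the 5 kept its call with each library left out in turn (limma adjusted p = 0.138 and 0.203 for Cdkn1a without shTaf5 replicate 2 and shTaf6 replicate 1, and 0.111 for Perp without the first).

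The remaining lists gave at most 2 calls each. Among those called higher were Crabp2 of the retinoic acid response (0.87), Isg15 of the interferon response (0.89), Insig1 and Idi1 of cholesterol synthesis (0.62 and 0.57) and the mesenchymal filament gene Vim (0.68). Vim was the 1 call of 5 genes tested on the fibroblast feeder list, whose median was 0.23. That list summed to 190 and 187 RPKM against 134 and 136 RPKM, and Vim held most of the difference. Called lower were Myl9 of the smooth muscle list (−0.56, 3 of 10 lower after upper-quartile scaling) and the D-type cyclin Ccnd3 (−0.51). Without shTaf6 replicate 1 the call of Idi1 was lost (limma adjusted p = 0.078), without shTaf5 replicate 2 that of Myl9 (0.059), and without either that of Ccnd3 (0.079 and 0.117). Isg15 then fell under the filter on level. No member was called among the LIF and Stat3 targets, YAP-TEAD targets, trophectoderm, neuroectoderm, mesendoderm, two-cell-like, oxidative phosphorylation, hypoxia and glycolysis, G2/M, DNA methylation and Polycomb lists, although 2 hypoxia and glycolysis genes were called lower after upper-quartile scaling.

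**Figure D5:**
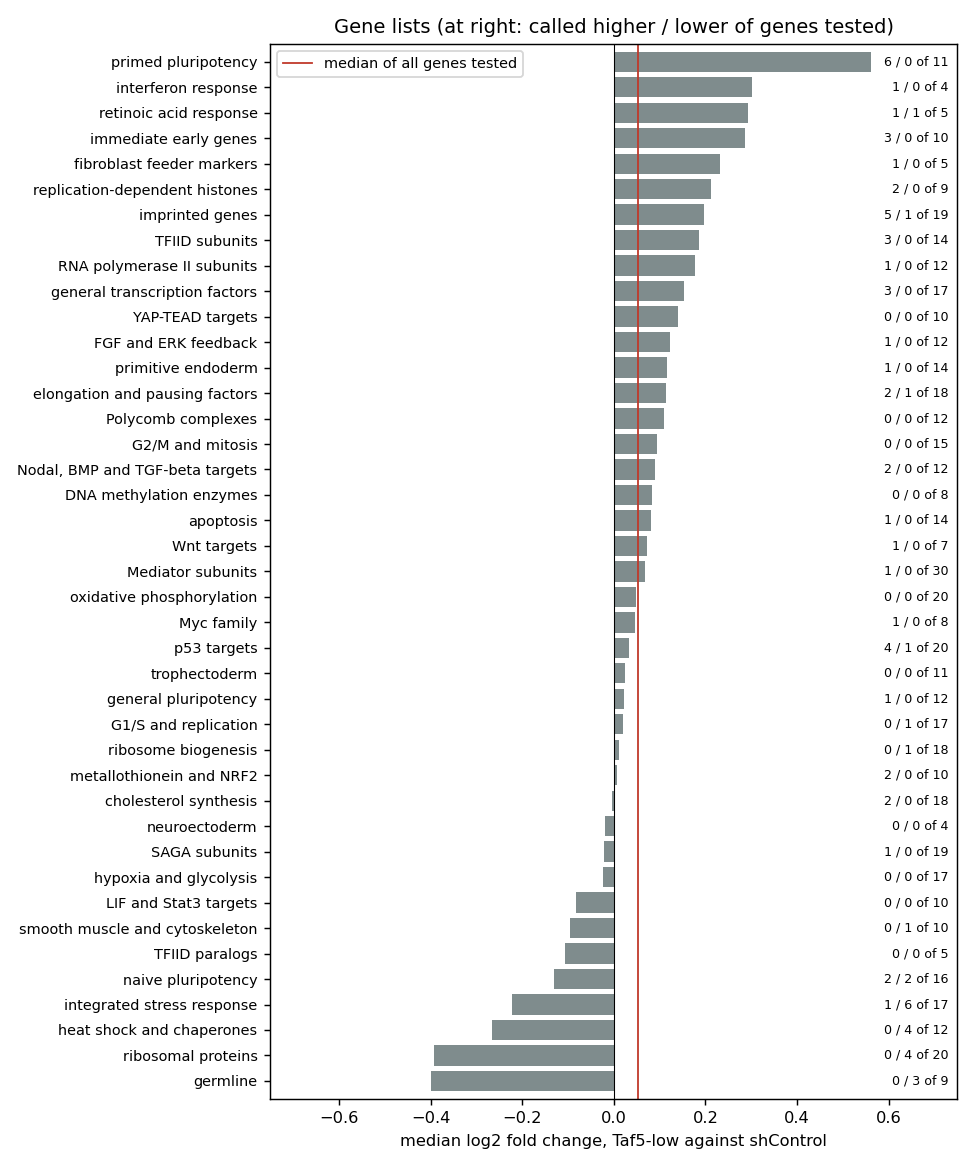
Median log2 fold change of the Taf5-low libraries against shControl for each gene list with at least 4 tested members, as bars, with the median of all genes tested (0.05) as a red line and the counts called higher and lower at the right. Primed pluripotency is at the top with a median of 0.56 and 6 of 11 called higher, and ribosomal proteins and germline genes are at the bottom with medians of −0.39 and −0.40.

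Because TFIID binds the core promoter, the promoter windows of called genes were searched for the letters TATAAA. RefSeq windows (build GRCm38.p6, 250 bases before to 50 after each start) were matched for 354 of 468 genes called higher (75.6%) and 163 of 220 called lower (74.1%). For all genes tested the match was 9261 of 11629 (79.6%). Each of these is under 80%, which makes a comparison of shares void. As a description of the matched windows alone, TATAAA was sought on the sense strand with its first base 40 to 20 bases before the start. It was in 14 of the 354 (3.95%), in 7 of the 163 (4.29%), and in 1.12% of the 9261 tested genes with a window. On either strand anywhere in the window it was in 11.3%, 9.20% and 6.72%, CCAAT in 43.5%, 39.3% and 39.9%, and GGGCGG in 64.1%, 66.9% and 67.6%, overlaps between motifs not being removed.

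The following windows, 60 bases before to 20 after the start, are shown since they are the TFIID recognition region of genes that rose or fell, with TATAAA in capitals. They are 4 called higher (Igfbp4, which binds insulin-like growth factors, Polr2a, Vim and Fos) and 3 called lower (Rpl22l1, Snhg7, a small nucleolar RNA host gene, and Tfcp2l1), read 5′ to 3′ on the gene's strand, and they were chosen after their values were seen. H1f2, the gene with the largest rise, is added as a window without the exact letters TATAAA. It does hold tatatata in the same region, which the search did not count.
Igfbp4, chr11:99041184-99041263, plus strand: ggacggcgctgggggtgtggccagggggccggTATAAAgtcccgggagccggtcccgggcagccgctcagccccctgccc
Polr2a, chr11:69758614-69758693, minus strand: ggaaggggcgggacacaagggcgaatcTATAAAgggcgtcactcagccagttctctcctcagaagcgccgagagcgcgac
Vim, chr2:13574251-13574330, plus strand: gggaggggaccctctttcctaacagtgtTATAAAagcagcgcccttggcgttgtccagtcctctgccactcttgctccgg
Fos, chr12:85473830-85473909, plus strand: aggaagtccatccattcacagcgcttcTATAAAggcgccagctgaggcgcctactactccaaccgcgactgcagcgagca
Rpl22l1, chr3:28805448-28805527, plus strand: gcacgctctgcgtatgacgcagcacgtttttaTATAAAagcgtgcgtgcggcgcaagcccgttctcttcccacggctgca
Snhg7, chr2:26640225-26640304, minus strand: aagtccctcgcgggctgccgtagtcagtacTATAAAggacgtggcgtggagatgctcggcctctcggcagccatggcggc
Tfcp2l1, chr1:118627885-118627964, plus strand: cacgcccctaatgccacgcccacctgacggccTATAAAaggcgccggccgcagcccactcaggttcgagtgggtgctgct
H1f2, chr13:23738747-23738826, plus strand: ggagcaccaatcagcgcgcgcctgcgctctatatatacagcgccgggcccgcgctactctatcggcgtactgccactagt

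Genes with the hexamer in this place thus moved in both directions. Igfbp4 was at 11.2 and 10.1 RPKM against 5.18 and 5.65 RPKM (log2 fold change 0.86 ± 0.10, limma adjusted p = 0.00623), and Vim at 111 and 112 RPKM against 64.5 and 74.3 RPKM (0.68 ± 0.10, limma adjusted p = 0.0126). Snhg7 was at 5.81 and 5.74 RPKM against 9.62 and 10.3 RPKM (−0.69 ± 0.09, limma adjusted p = 0.00921), and the host genes Snhg5 and Snhg8 had log2 fold changes of −0.58 and −0.71. A match of letters is a description of the window and was not tested as a site.

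To ask what set these libraries apart from other knockdowns of the same set, they were compared with the 37 other knockdown libraries as 1 group, without shTaf5 replicate 1. No gene of 12504 passed (0.0% called by limma), 1153 genes or 9.22% had an unadjusted p under 0.05, and the smallest adjusted p was 0.233. Without the filter on level 67 genes were called, 64 higher and 3 lower. The 37 libraries hold many different knockdowns, so their spread is wide. The genes that changed most against shControl mostly lay inside it: H1f2 ran from 2.02 to 31.5 RPKM over the 37 libraries with a median of 4.64 RPKM, and Nupr1 from 3.04 to 18.6 RPKM with a median of 9.55 RPKM.

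Some genes stood at the edge of the whole set. Of 11629 genes, both Taf5-low libraries were the highest 2 of 42 in 166 and the lowest 2 in 29. After upper-quartile scaling the counts were 62 and 78, so the direction of this imbalance rests on the scaling. Among them, chosen after their values were seen, were Taf6, Nnat, Cdkn1c, Tdgf1, Myc and the antioxidant enzyme gene Prdx1 at the high end and Aff1 at the low end. Nnat reached at most 22.6 RPKM in the other 37 libraries, with a median of 13.1 RPKM. Taf6 differed from the 37 libraries by 0.68 on the log2 scale, with an unadjusted limma p of 0.034, which did not survive adjustment. Of the 688 genes called against shControl, 250 had both Taf5-low libraries beyond the 10th or 90th percentile of the 37 on the same side. The same share over all genes tested was not computed, so nothing is drawn from this count.

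The libraries most alike in target were the 2 Taf6-low ones, since TAF6 lies beside TAF5 in the TFIID core. Against them 2983 of 11646 genes were called (25.6%), 1640 higher in the Taf5-low libraries (14.1%) and 1343 lower (11.5%), which is a larger share than against shControl. Taf5 and Taf6, which chose the libraries, were not tested. Leaving out shTaf5 replicate 2 left 539 calls and leaving out shTaf6 replicate 1 left 795, and 1085 were called without the filter on level.

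Among called genes that reached 5 RPKM, the largest differences upward were in Lefty1, Lefty2, Tdgf1, Dnmt3a and Atp5g1. Lefty1, a secreted Nodal inhibitor, was at 18.7 and 16.9 RPKM in the Taf5-low libraries and at 2.27 and 1.15 RPKM in the Taf6-low ones (log2 difference 2.82 ± 0.18, limma adjusted p = 0.000512). Lefty2 was at 6.68 and 6.56 RPKM against 1.03 and 0.965 RPKM (1.93 ± 0.09, limma adjusted p = 0.000168). Tdgf1 was at 290 and 288 RPKM against 88.1 and 78.8 RPKM (1.78 ± 0.08, limma adjusted p = 0.000168), and the DNA methyltransferase gene Dnmt3a at 26.8 and 24.8 RPKM against 7.37 and 6.43 RPKM (1.76 ± 0.09, limma adjusted p = 0.000168). Atp5g1, a subunit gene of the mitochondrial ATP synthase, was at 29.5 and 27.3 RPKM against 8.87 and 7.87 RPKM (1.65 ± 0.08, limma adjusted p = 0.000178). In the controls the first 4 genes stood at 10.4 and 15.3 RPKM (Lefty1), 5.34 and 6.35 RPKM (Lefty2), 206 and 209 RPKM (Tdgf1) and 23.9 and 25.6 RPKM (Dnmt3a).

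By the same rule, the largest differences downward were in Msc, Slc30a2, Tfap2c, Bmp4 and Morc4. Bmp4, a signal of extraembryonic and mesodermal fate, was at 5.65 and 5.07 RPKM against 15.3 and 13.3 RPKM (log2 difference −1.26 ± 0.10, limma adjusted p = 0.000833). Tfap2c, a trophoblast and germ cell factor, was at 6.12 and 4.64 RPKM against 15.3 and 13.3 RPKM (−1.27 ± 0.13, limma adjusted p = 0.0018). Msc, a helix-loop-helix repressor, was at 1.57 and 1.60 RPKM against 7.05 and 6.06 RPKM (−1.54 ± 0.10, limma adjusted p = 0.000531). Slc30a2, a zinc transporter gene, was at 1.75 and 1.15 RPKM against 5.53 and 5.11 RPKM (−1.38 ± 0.13, limma adjusted p = 0.00163), and Morc4 was at 4.90 and 5.23 RPKM against 12.7 and 13.0 RPKM (−1.19 ± 0.08, limma adjusted p = 0.000531). In each of the 5 genes the groups did not overlap.

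The lists differed in direction. Primed pluripotency genes were higher in the Taf5-low libraries in 9 of 11 and lower in none (median 1.06), and general pluripotency genes in 7 of 12 and lower in none (median 0.47). Primitive endoderm genes were lower in 12 of 14 (median −0.75), trophectoderm genes in 8 of 11 (−0.63) and YAP-TEAD targets in 8 of 10 (−0.50), with 1 gene higher over these 3 lists. Naive pluripotency genes were split, with 6 higher and 7 lower of 15 (median 0.18), and neuroectoderm genes were higher in 3 of 5 and lower in none (median 0.41). Of 12 Nodal, BMP and TGF-beta targets 6 were higher and 1 lower (median 0.17). TFIID subunits differed in none of 13. The median over all genes tested was 0.02.

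H1f2 and H2bc4 were higher still in the Taf6-low libraries, at 31.5 and 25.5 RPKM and at 31.8 and 37.0 RPKM, so the Taf5-low libraries lay between these and the controls (log2 differences −1.12 ± 0.10 and −0.55 ± 0.09, limma adjusted p = 0.00133 and 0.00676). Lncenc1, at 6.44 and 5.25 RPKM in the Taf6-low libraries, did not differ by the test (−0.02 ± 0.11, limma adjusted p = 0.916). Nupr1 was lower in the Taf6-low libraries, at 3.04 and 3.45 RPKM (log2 difference 0.71 ± 0.10, limma adjusted p = 0.00469).

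Against the 2 Taf9-low libraries 207 of 11598 genes were called (1.78%), 149 higher in the Taf5-low libraries (1.28%) and 58 lower (0.5%). TAF9 is the partner of TAF6 and is shared with SAGA, where TAF5 is not. After upper-quartile scaling 183 were higher and 238 lower, so 43.5% of calls were upward in place of 72.0%. The count moved to 117 without shTaf5 replicate 2, 124 without shTaf6 replicate 1, 1060 without shTaf9 replicate 2 and 531 without shTaf10 replicate 1.

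Of 9 replication-dependent histone genes 2 were called higher than in the Taf9-low libraries and none lower. H1f2 was at 12.8 and 12.2 RPKM in the Taf5-low libraries and at 2.47 and 2.38 RPKM in the Taf9-low ones (log2 difference 1.98 ± 0.08, limma adjusted p = 0.000308), and H2bc4 at 22.7 and 23.6 RPKM against 6.05 and 5.00 RPKM (1.89 ± 0.10, limma adjusted p = 0.000545). H2ax was at 169 and 174 RPKM against 75.4 and 58.0 RPKM (1.36 ± 0.12, limma adjusted p = 0.00652), and Dppa3 at 9.42 and 12.5 RPKM against 3.88 and 4.17 RPKM (1.24 ± 0.13, limma adjusted p = 0.00887). H4c9 was at 7.99 and 6.83 RPKM against 4.32 and 2.59 RPKM and did not pass (0.94 ± 0.18, limma adjusted p = 0.0503). In H1f2, H2bc4, H2ax and Dppa3 the Taf9-low values lay near those of the controls and apart from the Taf5-low ones. Among primed pluripotency genes, Cdh2 was called higher than in the Taf9-low libraries (0.62, limma adjusted p = 0.0447). Fgf5, at 1.49 and 1.46 RPKM in the Taf9-low libraries, did not differ by the test (limma adjusted p = 0.524). Nor did Zic2, at 12.2 and 9.81 RPKM there (limma adjusted p = 0.895).

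Among called genes of at least 5 RPKM, the 5 lowest against the Taf9-low libraries were Lefty2, Gbp2, Lefty1, Lncenc1 and Snord47. Lefty2 was at 6.68 and 6.56 RPKM against 17.4 and 15.8 RPKM (log2 difference −1.21 ± 0.08, limma adjusted p = 0.00243), and Lefty1 at 18.7 and 16.9 RPKM against 42.5 and 34.1 RPKM (−1.06 ± 0.11, limma adjusted p = 0.00927). Lefty1 thus stood in the order Taf6-low, controls, Taf5-low and Taf9-low, of which the controls and the Taf5-low libraries did not differ by the test (limma adjusted p = 0.113, and 0.0018 without control replicate 2). Lncenc1 was at 13.0 RPKM in both Taf9-low libraries, between the controls and the Taf5-low libraries (−1.06 ± 0.08, limma adjusted p = 0.00358). Gbp2, an interferon-inducible GTPase gene, was at 4.004 and 3.72 RPKM against 9.71 and 8.87 RPKM (−1.08 ± 0.09, limma adjusted p = 0.00492), and the small nucleolar RNA Snord47 was at 4.42 and 5.36 RPKM against 9.46 and 12.6 RPKM (−1.02 ± 0.14, limma adjusted p = 0.0201). Ak6, at 24.7 and 26.02 RPKM against 6.42 and 5.14 RPKM, overlaps Taf9 in the genome and may share its reads.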

How the data were processed

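The authors deposited 1 table of RPKM values per library, per transcript, and per the submitters' processing notes reads were aligned with TopHat2 to build mm9; no counting tool, annotation or strand setting is named there. Per the labels' protocols, RNA was extracted with TRIzol and libraries were made with KAPA stranded mRNA kits. Of 34995 lines per table, 33481 identifiers matched a RefSeq symbol, 188 a GENCODE symbol and 1186 none, giving 24206 genes, each represented by its transcript of highest mean RPKM over 100 libraries. No raw read counts were used, so tests ran on log2(RPKM + 1) with limma 3.58.1 (R 4.3.3; moderated variance with a trend on level), keeping genes that reached 1 RPKM in 2 or more of the libraries fitted, two-sided, Benjamini-Hochberg adjusted over all genes tested. Fits were tested on simulated data. With 4 libraries the residual degrees of freedom were 2. Taf5 was left out of all tests. The libraries, the 44 gene lists (623 entries, all matched) and the rules for named genes were chosen with earlier results of these data known. Named against shControl were the 14 highest and 14 lowest log2 fold changes among called genes of at least 5 RPKM whose groups did not overlap. Against Taf6-low and Taf9-low libraries, 5 each way were named likewise. Up to 4 called members per list and all TFIID subunits were also named; further list members, and the 8 promoter windows, were picked after their values were seen. Alternatives were another pseudocount (0.1), no filter, upper-quartile scaling, summed transcripts, a fold threshold, each library left out, the replicate number as a block, and the spread of all 42 libraries. Some called genes are not reported here.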

Additional observations from a re-analysis of the deposited data

How the results depend on the processing

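Against shControl the 688 calls became 676 with a pseudocount of 0.1 RPKM, 618 with transcripts summed and 951 with upper-quartile scaling. They fell to 27 when an absolute log2 fold change of 1 was also required, to 9 without the filter on level, and to 0 with the spread of all 42 libraries (1155 at an unadjusted p under 0.05), and ran from 276 to 1818 with 1 library left out (276 without shTaf5 replicate 2, 301 without shTaf6 replicate 1, 1356 without control replicate 1, 1818 without control replicate 2). Against the 37 other knockdowns the count of 0 became 67 without the filter and stayed at 0 in the other settings run. Against the Taf6-low libraries 2983 calls became 85 with the fold threshold and 1085 without the filter, and ran from 539 (without shTaf5 replicate 2) to 3444 (without shTaf6 replicate 2), with 795 without shTaf6 replicate 1. Against the Taf9-low libraries 207 calls became 21 with the fold threshold, 10 without the filter and 421 with upper-quartile scaling, and ran from 117 (without shTaf5 replicate 2) to 1060 (without shTaf9 replicate 2), with 124 without shTaf6 replicate 1 and 531 without shTaf10 replicate 1. The cause of these shifts was not tested. With the replicate number as a replicate block the counts were 2040, 0, 4146 and 847 in the same order. The groups have only 2 pairs each, whose deviations correlated at 0.14 against shControl, 0.21 against Taf6-low and 0.19 against Taf9-low, and the numbers are not known to pair the samples. Over single genes and settings, 1099 of 1376 values kept direction and side of the threshold, 264 lost the call, 13 gained one and 0 changed direction. The counts of genes at the edge of the 42 libraries under upper-quartile scaling were added after seeing the data. What differences this depth can show in low genes was not measured.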
